A study of Mus musculus with 6 samples.

Results

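The enzymes and readers of histone and DNA methylation and of protein acetylation were followed in CT26 cells, a wild-type colon carcinoma line of the BALB/c mouse, after irinotecan (CPT-11). Members were the protein-coding genes whose symbols begin with Kdm, Kmt, Kat, Hdac, Sirt, Setd, Setdb, Dnmt, Tet, Ezh, Prmt, Ehmt, Suv39h, Nsd or Brd, and 89 of the 11604 listed genes met that rule. They comprised 45 writers, 36 erasers, 7 bromodomain readers and Brd3os, a small gene beside Brd3 that the symbol rule takes in and that has no assigned role. Irinotecan is a prodrug of SN-38, which traps topoisomerase I on DNA. RNA was sequenced from 3 libraries of cells given DMSO, the solvent, and 3 of cells given 10 µM irinotecan for 24 h. The DMSO libraries are called Con1, Con2 and Con3 and the irinotecan libraries Iri1, Iri2 and Iri3, by the replicate numbers in their titles. How long the DMSO cells were exposed is not stated, nor is a separate culture per library, so p-values measure a spread between samples that may be technical. The design text speaks of duplicates, while the labels give 3 samples per group, and all 6 were used. The series title places the comparison in the setting of anti-tumor immunity.

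Histone tails carry acetyl and methyl groups that are placed by acetyltransferases (KAT) and methyltransferases (KMT, SETD, NSD, EZH, PRMT). They are removed by deacetylases (HDAC and sirtuins) and demethylases (KDM), and acetyl-lysine is bound by bromodomain (BRD) proteins. Cytosine is methylated by DNMT enzymes and oxidised by TET enzymes. Many of these proteins sit in shared complexes such as COMPASS, Polycomb and NuRD, and several also modify proteins other than histones.

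The libraries held 16052326 to 17294496 counts over the listed genes, of which members took 0.733% to 0.772% and mitochondrial genes 1.89% to 2.23%. Of 12 epithelial markers only Krt18, Krt20 and Cdh17 had a row in the table, although CT26 is a carcinoma line. Cdh17 rose and Krt18 fell (log2 fold change 1.40 and -0.23), while Krt20 had 0.04. The Krt18 call was lost without Con2, Iri1 or Iri3 (adjusted p 0.071 to 0.14, range 0.0027 to 0.14 over 13 alternatives). Of 12 haematopoietic markers Cd14 and Cd68 had a row, with log2 fold changes of 0.24 and 0.76 that passed, and 0 of 6 endothelial markers did. Cd14 was lost under 7 of 13 alternatives (adjusted p 0.02 to 0.15), among them omission of each library but Con1. Cd68, at 2.01 to 4.23 CPM, was lost without Con1, Con3, Iri1 or Iri3 (0.052 to 0.07, range 0.0073 to 0.07). The table holds no gene at 0 in any library, so absent markers cannot be given a level. The part of other cells in the results below was not tested.

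Irinotecan changed 21 of the 89 members, 8 higher and 13 lower, and the changes were small. The share changed, 23.6%, stood beside 22.1% of the 11599 genes tested (11.8% higher and 10.3% lower), so it is near the background. The largest fall was 28.1%, in the demethylase gene Kdm6b, and the largest rise 53.7%, in the weakly expressed deacetylase gene Hdac11. None of the 89 reached a 2-fold change, and 146 of the 11599 genes tested did, called or not. Among the genes changed, the median absolute log2 fold change was 0.295 for members and 0.289 for all genes. The size of the members' changes is thus near the background too. The median log2 fold change of the members was -0.02, beside 0.00 for all genes. Genes were tested with edgeR's quasi-likelihood test with Benjamini-Hochberg adjustment over all genes, and a call means an adjusted p under 0.05. The irinotecan libraries lay wholly above or below the DMSO libraries for 34 members (38.2%), beside 37.1% of all genes.

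Writers and erasers each held genes of both directions. The 45 writers held 3 genes that rose and 5 that fell (17.8% called), and their median log2 fold change was -0.03. The 36 erasers held 5 that rose and 7 that fell (33.3% called, median 0.01). Of all genes, 22.1% were called. The 7 readers had a median of -0.02. When libraries were scaled by total counts alone, the split over all members was 14 higher and 6 lower in place of 8 and 13, and 1631 higher and 835 lower of all genes. None of the 21 members called changed its sign under any of 13 alternative analyses. The number of members called was 5 without Iri1, 9 without Con2 and 11 without Iri2, in place of 21. Over all genes it was 1393, 1709 and 1868 in the same order, in place of 2559. Without Iri1 the writers called were 3, the erasers 2 and the readers 0.

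**Figure D1:**
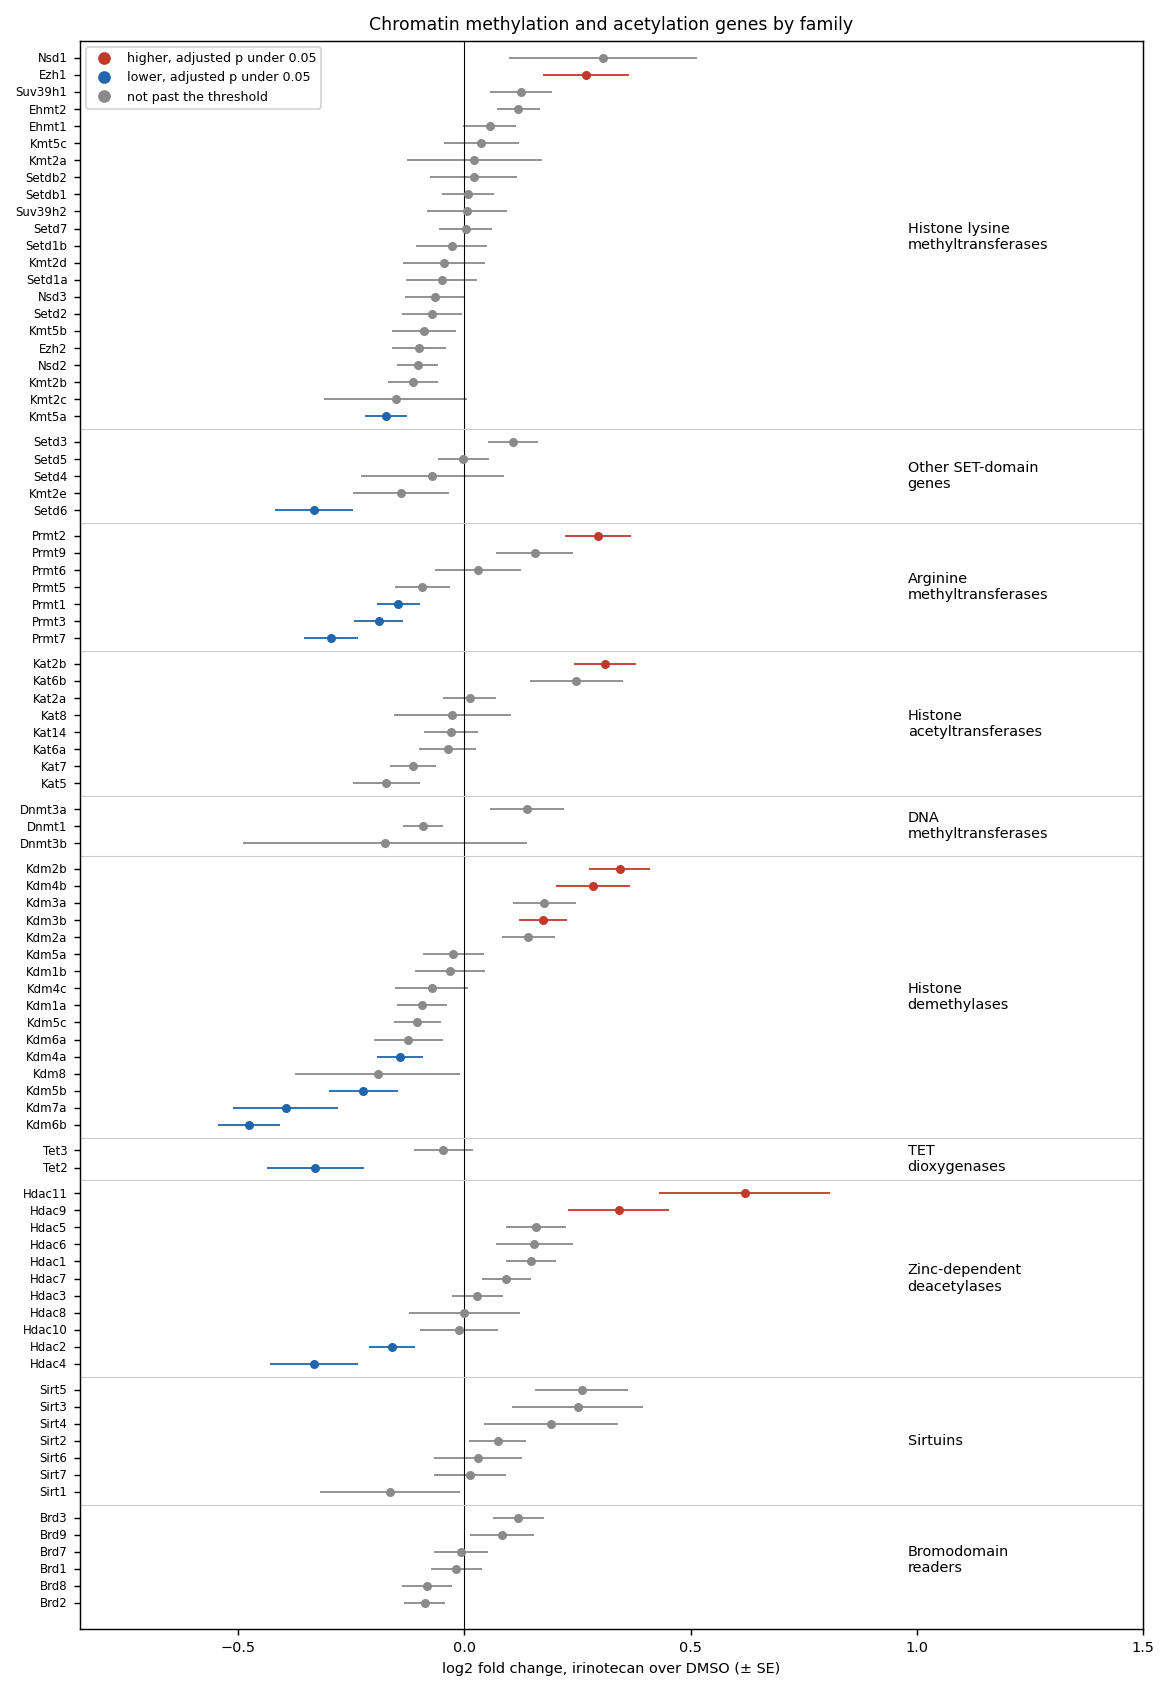
Log2 fold change of irinotecan over DMSO, with its standard error, for 87 members grouped by family (Brd3os, with no role, is not drawn); red points rose, blue points fell and grey points did not pass the threshold. Every family with at least 5 members has points on both sides of 0, and the outermost points are Kdm6b at -0.48 and Hdac11 at 0.62.

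The 5 members that passed under each of 13 alternative analyses were Kdm6b, Kdm2b, Prmt7, Kat2b and Setd6. How many of all genes called did so was not counted. Kdm6b (ENSMUSG00000018476, chromosome 11, 69289334 to 69304501, GRCm39), which removes methyl groups from lysine 27 of histone H3, was at 89.9, 109 and 99.9 CPM (TMM-normalized counts at a common library size) in DMSO and at 71.0, 67.7 and 76.2 with irinotecan. All 3 irinotecan libraries lay below every DMSO library, and the log2 fold change was -0.48 ± 0.068 (SE, edgeR adjusted p = 3.4e-05). Kdm2b (ENSMUSG00000029475, chromosome 5, 123008728 to 123127886), a demethylase of lysine 36 of histone H3 that also brings a variant Polycomb complex to CpG islands, was at 38.9, 39.1 and 37.6 CPM in DMSO and 49.7, 49.5 and 47.5 with irinotecan. It rose by 0.34 ± 0.067 on the log2 scale (adjusted p = 9.4e-04), and its groups were separate.

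Kat2b (chromosome 17, 53873889 to 53979748) encodes PCAF, an acetyltransferase of the SAGA and ATAC type complexes. Its level was 40.1, 38.4 and 40.8 CPM in DMSO and 51.5, 48.7 and 47.9 with irinotecan, with no overlap and a log2 fold change of 0.31 ± 0.068 (adjusted p = 0.0024). Prmt7 (chromosome 8, 106937568 to 106979426), which places monomethyl groups on arginine, was at 88.2, 98.5 and 89.7 CPM in DMSO and 71.8, 76.9 and 76.5 with irinotecan. It fell by 0.30 on the log2 scale (SE 0.06, adjusted p = 0.0013). Setd6 (chromosome 8, 96442509 to 96445638), a SET-domain enzyme known in human cells for methylating the NF-kB subunit RelA, was at 29.2, 31.8 and 28.9 CPM in DMSO and 22.9, 26.2 and 22.3 with irinotecan. Its groups did not overlap, and it fell by 0.33 (SE 0.086, adjusted p = 0.0087, at most 0.049 over the 13 alternatives). In the table the spans of Prmt7 and Kdm2b overlap genes on the opposite strand by 247 and at most 627 bases, and strandedness is not given, so reads in those stretches cannot be assigned.

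The promoters of 4 of these genes are shown because they are the members with the firmest calls, 2 that rose and 2 that fell, and they differ in CpG content. The sequences are RefSeq's on GRCm38.p6, the 250 bases before the most upstream annotated start, on the gene's strand, and a promoter of Kdm6b was not used here. Capitals mark the motif matches described after them. Kdm2b is at chr5:122989100-122989349 (minus strand), Kat2b at chr17:53566721-53566970 (plus), Prmt7 at chr8:106210804-106211053 (plus) and Setd6 at chr8:95715663-95715912 (plus).
Kdm2b: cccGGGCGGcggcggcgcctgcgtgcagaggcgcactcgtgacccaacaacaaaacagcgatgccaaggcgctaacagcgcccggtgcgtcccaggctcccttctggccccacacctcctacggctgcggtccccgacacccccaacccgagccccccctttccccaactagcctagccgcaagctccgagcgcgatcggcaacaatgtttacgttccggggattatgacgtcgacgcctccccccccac
Kat2b: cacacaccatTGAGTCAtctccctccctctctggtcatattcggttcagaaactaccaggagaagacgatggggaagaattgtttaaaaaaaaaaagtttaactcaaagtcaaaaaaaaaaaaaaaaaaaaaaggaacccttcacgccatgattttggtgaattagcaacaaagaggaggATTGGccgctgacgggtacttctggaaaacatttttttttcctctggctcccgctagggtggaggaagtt
Prmt7: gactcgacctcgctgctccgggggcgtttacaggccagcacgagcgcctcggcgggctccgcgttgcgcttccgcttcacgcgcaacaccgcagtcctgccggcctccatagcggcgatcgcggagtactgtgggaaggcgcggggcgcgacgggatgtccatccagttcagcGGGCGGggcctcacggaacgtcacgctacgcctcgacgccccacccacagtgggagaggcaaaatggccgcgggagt
Setd6: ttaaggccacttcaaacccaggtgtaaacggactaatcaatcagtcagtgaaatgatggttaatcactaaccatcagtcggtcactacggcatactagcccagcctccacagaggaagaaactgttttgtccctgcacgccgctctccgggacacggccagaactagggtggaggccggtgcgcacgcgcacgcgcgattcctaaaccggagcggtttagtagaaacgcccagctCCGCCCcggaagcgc

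The Kat2b promoter held 6 CG dinucleotides and 40.8% G and C, against 27, 35 and 20 CG in the promoters of Kdm2b, Prmt7 and Setd6. The median was 17 over the 72 members with a promoter in the RefSeq table and 16 over 9040 genes tested. Motifs were searched on both strands, and matches of different motifs may overlap. The GC box GGGCGG was found in the promoters of Kdm2b, Prmt7 and Setd6, and in 62.5% of the 72 members' promoters beside 60.7% of those of genes tested. By call, 10 of 11 promoters of members that fell held it, 3 of 6 of those that rose, and 32 of 55 of the rest. Of the motifs searched, the GC box differed most in share between members that fell and rose. The CCAAT box was in 5 of 11, 3 of 6 and 22 of 55. In the same order, the median CG count was 20, 14 and 17, and median G and C content 62%, 56.2% and 60.8%. The part of base content in the GC box counts was not tested. Kat2b had an AP-1 match (TGANTCA, 4.17% of members and 4.28% of genes tested) at 240 to 234 bases before the start, and a CCAAT box (CCAAT, 41.7% and 37.5%). The EGR motif GCGNGGGCG, whose letters can overlap a GC box, was in 8.33% of members' promoters and 8.87% of those of genes tested. It was not found in the 4 promoters shown, nor were the E-box CACGTG (8.33% and 8.72%), a core of the interferon-stimulated response element (2.78% and 2.73%) and the E2F-type TTTNGCGC (0% and 2.12%). A match is a description of the letters, not a bound site.

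Of 22 histone lysine methyltransferases 1 rose and 1 fell, so 9.09% were called beside 22.1% of all genes. Kmt5a, which monomethylates lysine 20 of histone H4, was at 465, 476 and 461 CPM in DMSO and 397, 415 and 432 with irinotecan. It fell by 0.17 (SE 0.047, adjusted p = 0.011) with no overlap, a call lost without Iri1 (adjusted p = 0.084, the highest of 13 alternatives, the lowest being 1.5e-04). Ezh1, a catalytic subunit of Polycomb complex PRC2, was at 21.6, 19.1 and 22.5 CPM in DMSO and 28.3, 24.97 and 22.9 with irinotecan, where the lowest irinotecan library barely exceeds the highest of DMSO. Its rise of 0.27 ± 0.095 (adjusted p = 0.047) was lost with DESeq2 (0.08), limma-voom (0.058) and DESeq2-type size factors (0.05). It was also lost without Con1 (0.072) or Con2 (0.19) or Iri1 (0.26) or Iri2 (0.089), with a range of 0.015 to 0.26 over 13 alternatives.

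The other 20 lysine methyltransferases did not pass. The 7 that act on lysine 4 of histone H3 had log2 fold changes between -0.15 (Kmt2c) and 0.02 (Kmt2a), and Kmt2a was at 103 ± 18.4 and 105 ± 11.6 CPM (SD, n = 3). Among the 6 that act on lysine 9, Ehmt2 (G9a) was at 284 ± 8.45 and 309 ± 13.9 CPM (log2 fold change 0.12, adjusted p = 0.081). It passed under total-count scaling (0.028) and with the replicate number as a block (0.0091), with a range of 0.0091 to 0.33 over 13 alternatives. Suv39h1 had 0.13 ± 0.068 and Setdb1 0.01 ± 0.058 (SE). Ezh2, the other PRC2 catalytic subunit, stood at 108 ± 8.48 and 100.4 ± 2.68 CPM (adjusted p = 0.25). Ehmt1, Suv39h2 and Setdb2 lay between 0.01 and 0.06. Of the lysine 36 enzymes, Nsd1 had 0.31 ± 0.21 at the lowest FPKM of all members, Nsd3 -0.06 ± 0.066, Nsd2 -0.10 ± 0.046 (adjusted p = 0.11) and Setd2 -0.07 ± 0.066 (adjusted p = 0.48). Nsd2 passed in 1 of 13 alternatives, the fit with the replicate number as a block (0.022, range 0.022 to 0.27). The lysine 20 enzymes Kmt5b and Kmt5c had -0.09 and 0.04. The remaining SET-domain genes beside Setd6 were Setd3, an actin histidine methyltransferase, at 0.11, and Setd4, Setd5 and Kmt2e between -0.14 and 0.00.

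Arginine methyltransferases changed in both directions. Of 7 listed, Prmt2 rose, Prmt1, Prmt3 and Prmt7 fell, and Prmt5, Prmt6 and Prmt9 did not pass, so 57.1% were called beside 22.1% of all genes. The share leaves out the arginine methyltransferase Carm1, which the symbol rule misses. Carm1 had -0.10 ± 0.052 in separate groups and did not pass (adjusted p = 0.18). Prmt1, the main source of asymmetric dimethylarginine in mammalian cells, was at 411, 395 and 383 CPM in DMSO and 362, 367 and 346 with irinotecan (log2 fold change -0.15 ± 0.047, adjusted p = 0.029). Prmt3, which methylates a ribosomal protein of the small subunit, was at 109, 111 and 104 CPM and at 94.6, 91.0 and 97.8 (-0.19 ± 0.055, adjusted p = 0.016). Prmt2 was at 46.5, 44.9 and 39.8 CPM in DMSO and 57.5, 52.3 and 51.2 with irinotecan (0.30 ± 0.073, adjusted p = 0.0062). In all 3 genes the groups were separate. Prmt5, which makes symmetric dimethylarginine, had -0.09 ± 0.061 (adjusted p = 0.3), with 120 ± 7.22 and 112 ± 8.6 CPM in overlapping groups, and Prmt6 and Prmt9 had 0.03 and 0.16.

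These calls rest on few libraries. Without Iri1 the adjusted p was 0.053 for Prmt2 (range 1.6e-04 to 0.053 over 13 alternatives), 0.054 for Prmt3 (range 0.0018 to 0.081) and 0.075 for Prmt1 (range 0.0011 to 0.14). Prmt3 was also lost without Con1 (0.053) or Con2 (0.061) or Iri2 (0.081). Prmt1 was also lost under total-count scaling (0.076) and without Con1 (0.14) or Con2 (0.055) or Iri2 (0.051) or Iri3 (0.12).

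Of 8 acetyltransferases 1, Kat2b, passed (12.5% called, beside 22.1% of all genes). Its close relative Kat2a (GCN5) stood at 121 ± 5.97 and 122 ± 8.88 CPM (SD, n = 3, log2 fold change 0.01 ± 0.058). Kat5 (TIP60), which acts at DNA breaks as well as at promoters, had 44.3, 46.3 and 43.0 CPM in DMSO and 36.5, 39.4 and 42.7 with irinotecan. The groups were separate by a narrow margin, and the log2 fold change was -0.17 ± 0.074 (adjusted p = 0.099). Kat5 passed without Iri3 (0.049) and with the replicate number as a block (0.042), with a range of 0.042 to 0.36 over 13 alternatives. Its span overlaps Rnaseh2c on the opposite strand by 4006 bases. Kat7 (HBO1) had -0.11 ± 0.052 (adjusted p = 0.12), and it passed in 1 of 13 alternatives, the replicate block (0.04, range 0.04 to 0.34). Kat6a, Kat6b, Kat8 and Kat14 lay between -0.04 and 0.25 and did not pass.

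None of the 3 DNA methyltransferases listed passed. The maintenance enzyme Dnmt1 was at 360, 351 and 357 CPM in DMSO and 338, 327 and 337 with irinotecan, in separate groups, with a log2 fold change of -0.09 ± 0.044 (adjusted p = 0.15). The de novo enzymes Dnmt3a and Dnmt3b were at 26.9 ± 1.49 and 29.6 ± 1.54 CPM and at 1.58 ± 0.13 and 1.40 ± 0.492 CPM (adjusted p = 0.25 and 0.74). By the unadjusted p, 0 of these 3 were under 0.05, and DESeq2 and limma-voom also called 0. Dnmt1 passed in 1 of 13 alternatives, the fit with the replicate number as a block (adjusted p = 0.042, range 0.042 to 0.35).

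**Figure D2:**
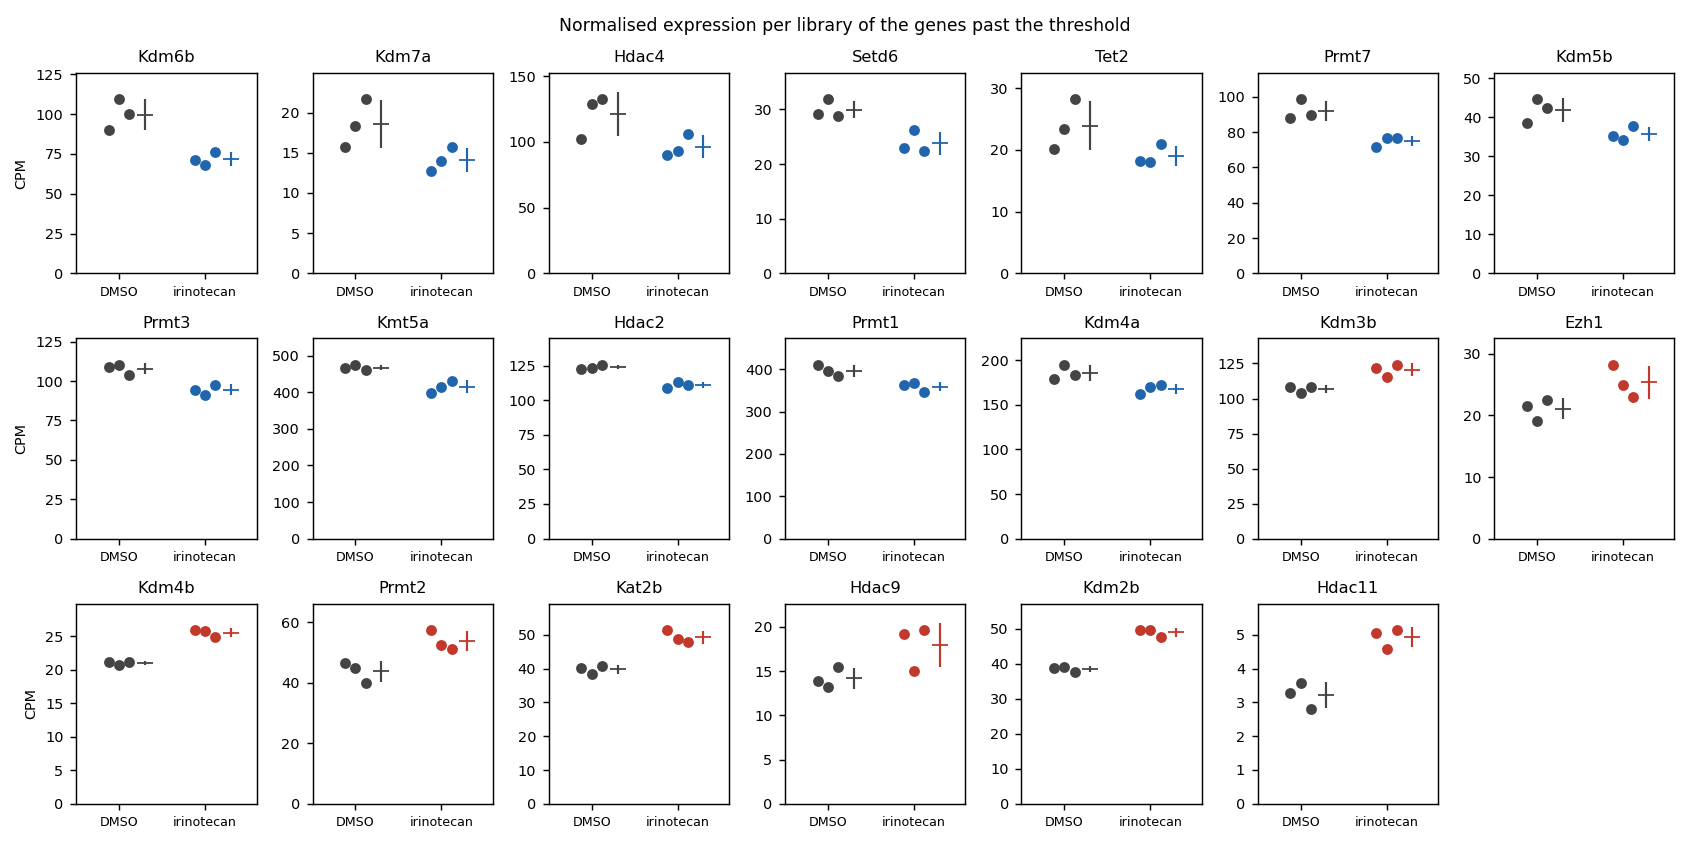
CPM in each library (points) with the mean and SD of the 3 libraries beside them, for 20 members past the threshold, on linear axes from 0 and in order of log2 fold change; black is DMSO, blue irinotecan where lower and red irinotecan where higher. The groups overlap in Tet2, Hdac4 and Hdac9 and are separate in the other 17.

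Histone demethylases had 3 members higher and 4 lower of 16, which is 43.8% called beside 22.1% of all genes. The 16 include Kdm8, whose demethylase activity is disputed. Beside Kdm2b, the genes that rose were Kdm4b and Kdm3b. Kdm4b, which acts on trimethylated lysines 9 and 36 of histone H3, was at 21.2, 20.7 and 21.1 CPM in DMSO and 26.0, 25.8 and 24.8 with irinotecan (0.28 ± 0.083, adjusted p = 0.017). Kdm3b, a lysine 9 demethylase, was at 109, 104 and 108 CPM and at 122, 116 and 124 (0.17 ± 0.053, adjusted p = 0.022). Both pairs of groups were separate. Kdm3b's relative Kdm3a had a log2 fold change of 0.18 ± 0.07 (adjusted p = 0.075), with overlapping groups.

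The genes that fell beside Kdm6b were Kdm7a, Kdm5b and Kdm4a. Kdm7a, a demethylase of lysines 9 and 27, was at 15.7, 18.3 and 21.6 CPM in DMSO and 12.7, 13.99 and 15.7 with irinotecan, where the lowest DMSO library and the highest irinotecan library nearly touch (-0.40 ± 0.12, adjusted p = 0.018). Kdm5b, which removes trimethylation of lysine 4, was at 38.4, 44.6 and 42.4 CPM and at 35.3, 34.3 and 37.7 (-0.22 ± 0.076, adjusted p = 0.039). Kdm4a, a close relative of Kdm4b, was at 179, 195 and 183 CPM and at 162, 170.5 and 173 (-0.14 ± 0.05, adjusted p = 0.045). The lysine-specific demethylase Kdm1a (LSD1) was at 118 ± 4.69 and 110.3 ± 5.42 CPM (adjusted p = 0.24). Kdm6a (UTX), the X-linked relative of Kdm6b, had -0.12 ± 0.077 (adjusted p = 0.27) in separate groups. Kdm2a, Kdm5c, Kdm1b, Kdm4c, Kdm5a and Kdm8 lay between -0.19 and 0.14 and did not pass. The span of Kdm1a overlaps Luzp1 on the opposite strand by 4241 bases.

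Without Iri1 the adjusted p was 0.065 for Kdm4b, 0.078 for Kdm3b, 0.11 for Kdm7a, 0.12 for Kdm5b and 0.2 for Kdm4a. Kdm4b was also lost without Con2 (0.051) or Iri2 (0.054), with a range of 0.007 to 0.065 over 13 alternatives. Kdm3b was also lost without Con2 (0.079) or Iri3 (0.085, range 0.0021 to 0.085), and Kdm7a without Con3 (0.11) or Iri2 (0.059, range 0.0014 to 0.11). Kdm5b was also lost under total-count scaling (0.075), with DESeq2 (0.051), and without Con2 (0.16), Con3 (0.08) or Iri2 (0.14, range 0.011 to 0.16). Kdm4a was also lost under total-count scaling (0.11), DESeq2 (0.052), limma-voom (0.051), and without Con2 (0.2) or Iri2 (0.087) or Iri3 (0.053, range 0.0043 to 0.2).

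Zinc-dependent deacetylases had 2 members higher and 2 lower of 11 (36.4% called, beside 22.1% of all genes). Hdac2, a class I enzyme of the NuRD, Sin3 and CoREST complexes, was at 123, 123 and 126 CPM in DMSO and 109, 113 and 111 with irinotecan, in separate groups (-0.16 ± 0.05, adjusted p = 0.026). Its partner Hdac1 was at 89.5, 85.4 and 83.4 CPM and at 96.7, 96.0 and 93.3, also separate but in the other direction (0.15 ± 0.055, adjusted p = 0.061). Hdac1 passed under total-count scaling (0.026) and with the replicate number as a block (0.018), with a range of 0.018 to 0.17 over 13 alternatives. Hdac3, the enzyme of the NCoR complex, was at 133 ± 10.2 and 135 ± 4.44 CPM (adjusted p = 0.77).

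The class IIa enzymes, which bind transcription factors of the MEF2 family, were split. Hdac4 was at 102, 129 and 132 CPM in DMSO and 89.8, 92.8 and 106 with irinotecan, where Con1 lies within the irinotecan range (-0.33 ± 0.097, adjusted p = 0.034). Hdac9 was at 13.9, 13.2 and 15.4 CPM and at 19.1, 15.04 and 19.7, where Iri2 lies within the DMSO range (0.34 ± 0.11, adjusted p = 0.033). Hdac5 and Hdac7 had 0.16 and 0.09 and did not pass. Hdac11, the only class IV enzyme, was at 3.265, 3.56 and 2.80 CPM in DMSO and 5.06, 4.59 and 5.15 with irinotecan, in separate groups at a low level (0.62 ± 0.19, adjusted p = 0.023). The remaining Hdac6, Hdac8 and Hdac10 lay between -0.01 and 0.15.

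Without Iri1 the adjusted p was 0.1 for Hdac2, 0.1 for Hdac4, 0.14 for Hdac9 and 0.073 for Hdac11. Hdac2 was lost without any 1 of the 6 libraries (0.052 to 0.1) and under total-count scaling (0.072), with a range of 0.004 to 0.1 over 13 alternatives. Hdac4 was also lost under total-count scaling (0.051) and without Con2 (0.15), Con3 (0.1) or Iri2 (0.089, range 5.6e-07 to 0.15). Hdac9 was also lost with DESeq2 (0.055) and without Con1 (0.08), Con2 (0.12) or Iri3 (0.14, range 0.0067 to 0.14). Hdac11 was also lost without Con3 (0.076) or Iri3 (0.065, range 0.013 to 0.076).

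Sirtuins, the NAD-dependent deacylases, gave 0 calls of 7 with edgeR, DESeq2 and limma-voom, with 1 at an unadjusted p under 0.05. The 3 mitochondrial members Sirt3, Sirt4 and Sirt5 had log2 fold changes of 0.25, 0.19 and 0.26. Sirt5, a desuccinylase, was at 11.9 to 12.8 CPM in DMSO and 14.4 to 15.6 with irinotecan, in separate groups (adjusted p = 0.076). The nuclear Sirt1 and Sirt6 had -0.16 ± 0.15 and 0.03 ± 0.097 (SE, adjusted p = 0.49 and 0.87), and Sirt7 and Sirt2 had 0.01 and 0.07. Tet2, which oxidises methylcytosine, was at 20.2, 23.4 and 28.2 CPM in DMSO and 18.2, 18.1 and 20.9 with irinotecan, in overlapping groups (-0.33 ± 0.11, adjusted p = 0.032). The Tet2 call was lost under total-count scaling (0.055) and without Con2 (0.067), Con3 (0.2), Iri1 (0.13) or Iri2 (0.12), with a range of 0.0033 to 0.2 over 13 alternatives. Tet3 had -0.05 ± 0.065 (adjusted p = 0.66).

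Bromodomain readers bind acetylated lysine. Brd2 had -0.09 ± 0.045 in separate groups (adjusted p = 0.17) and a span that overlaps H2-DMa on the opposite strand by 3094 bases, and Brd3 had 0.12 ± 0.057 (adjusted p = 0.14). Brd1, Brd7, Brd8 and Brd9, subunits of acetyltransferase and SWI/SNF complexes, lay between -0.08 and 0.08. Brd3os had -0.22 ± 0.1 (adjusted p = 0.12).

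Per gene length, the members spanned more than 2 orders of magnitude in the authors' FPKM values. In DMSO Prmt1 had the highest level, 114 ± 3.96 FPKM (SD, n = 3), followed by Kmt5a at 87.1 ± 0.548, Ehmt2 at 51.2 ± 1.56 and Dnmt1 at 47.7 ± 0.963. These 4 are further apart than their spread. Brd2, Kat2a, Hdac3, Kdm4a and Prmt5 followed at 36.9, 34.5, 32.3, 31.7 and 29.95 FPKM, and from Kat2a on neighbours in this order differ by less than the larger of their SDs (1.59, 2.75, 1.198 and 1.99). The lowest levels were those of Nsd1 (0.247 ± 0.0637), Dnmt3b (0.306 ± 0.0221), Hdac11 (0.823 ± 0.0912) and Hdac9 (0.944 ± 0.0853). The order is by annotated gene length and would shift with another gene model. Prmt1, Kmt5a and Kdm4a, among the 10 highest of the 89, fell, while Hdac11, Hdac9, Tet2 and Kdm7a, among the 10 lowest, moved both ways.

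**Figure D3:**
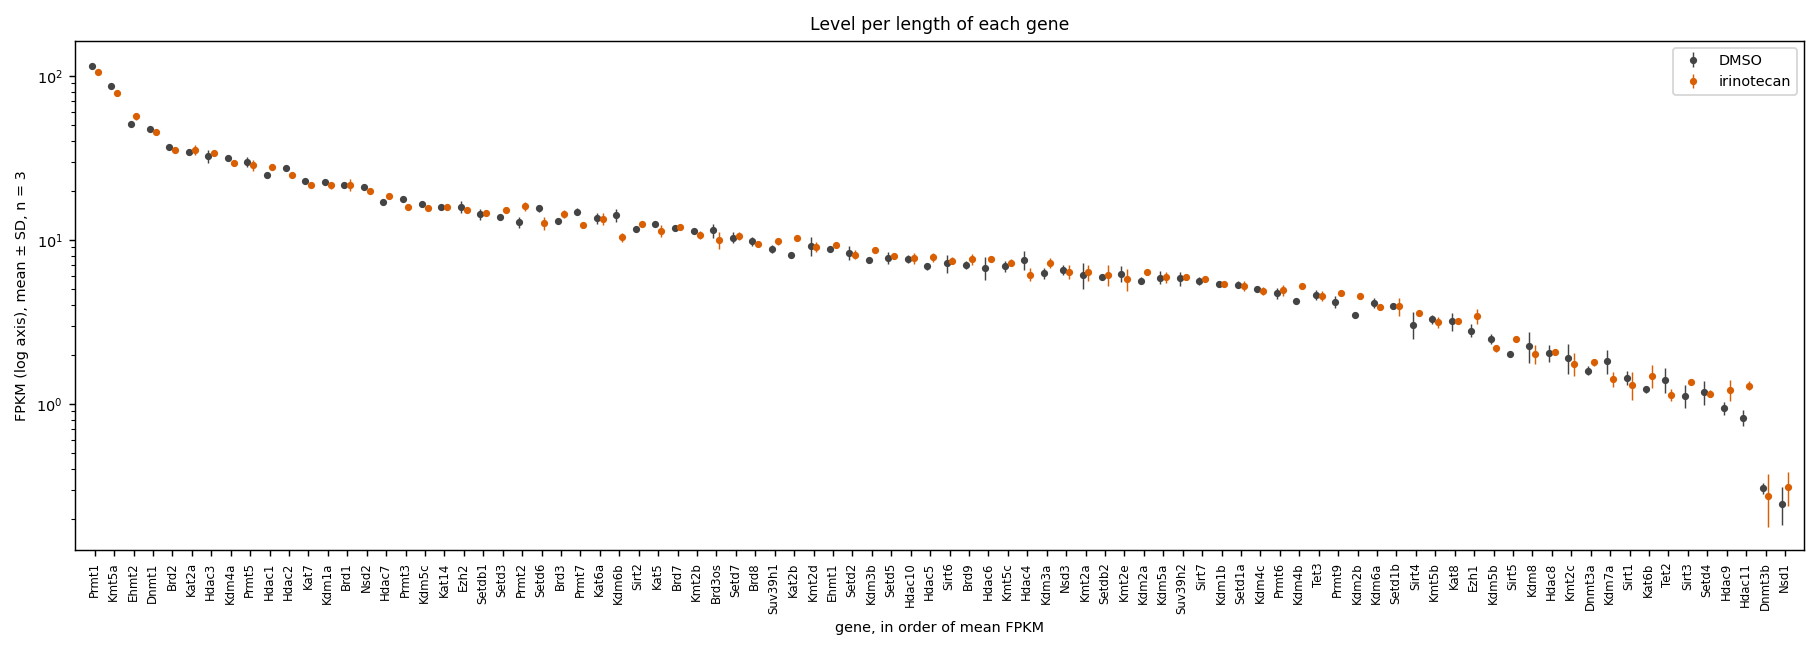
FPKM on a log axis, mean and SD of 3 libraries, for 88 members in order of their mean, with DMSO in black and irinotecan in orange. Prmt1 at 114 FPKM in DMSO stands at the left end and Nsd1 at 0.247 at the right end, and the widest gap between the groups on the log axis, at Hdac11, is 0.823 against 1.29 FPKM.

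Relatives with the same activity were compared within each library as a ratio of their FPKM values, in 10 pairs chosen after the values of the members were seen. The Ezh1 to Ezh2 ratio was 0.165, 0.169 and 0.194 in DMSO and 0.245, 0.228 and 0.207 with irinotecan. The Kdm4b to Kdm4a ratio was 0.14, 0.125 and 0.136 in DMSO and 0.19, 0.179 and 0.170 with irinotecan, and that of Kat2b to Kat2a was 0.226, 0.224 and 0.254 against 0.278, 0.299 and 0.289. In these 3 pairs every irinotecan library had the higher ratio. The Hdac2 to Hdac1 ratio went from 1.06, 1.11 and 1.16 to 0.865, 0.906 and 0.916, so that Hdac2 was the higher of the pair in all DMSO libraries and the lower in all irinotecan libraries. This order rests on FPKM and its gene lengths, since by CPM Hdac2 was above Hdac1 in every library. The Kdm6b to Kdm6a ratio was 3.25, 3.84 and 3.21 against 2.60, 2.60 and 2.84. Of the 10 pairs, 9 had separate groups and 1 had overlapping ratios, beside 29.0% separate of all 511 pairs of members within one family. The pairs were picked for how their genes moved, so their ratios are a description and were given no test.

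**Figure D4:**
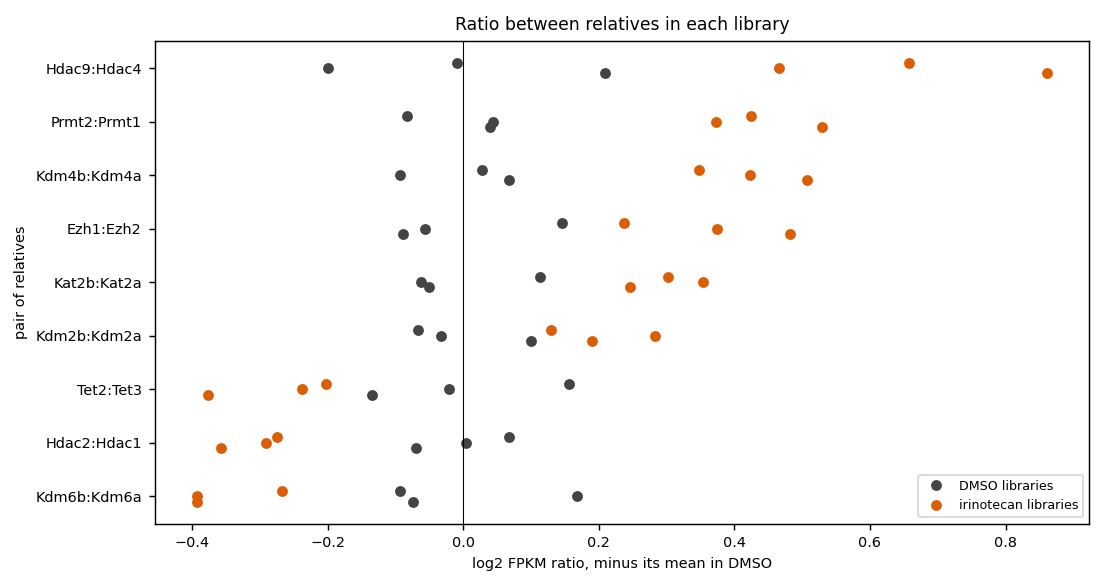
Log2 FPKM ratio of 9 of the 10 pairs of relatives in each of the 6 libraries, with the mean of the DMSO libraries set to 0; black points are DMSO and orange points irinotecan. The orange points lie apart from the black points in these 9 pairs, the pair with overlapping ratios is not drawn, and the widest shift is that of Hdac9:Hdac4, at 0.66 on the log2 scale.

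Partner genes of the same reactions and complexes were taken from 10 lists of 219 genes, 204 of which had a row. Of these, 13 rose and 18 fell, 15.2% in all beside 22.1% of all genes tested, with a median log2 fold change of -0.01. Among 21 other bromodomain genes 4 rose and 3 fell (33.3% called). Sp100, an interferon-inducible nuclear body protein, was at 38.6, 40.8 and 46.4 CPM in DMSO and 78.8, 66.4 and 70.9 with irinotecan (0.78 ± 0.076, adjusted p = 2.1e-07). Its relative Sp110 rose by 0.77 ± 0.15. Sp140 and the testis BET gene Brdt, named after their values were seen, rose by 0.49 and 0.72 and passed under all 13 alternatives. Sp100, Sp110 and Sp140 are related in sequence, so reads may be split between them and their copies and each value is uncertain. Trim33, a ubiquitin ligase that reads histone H3, fell by 0.34 (SE 0.063), and Brwd1 fell by 0.25 with overlapping groups, a call lost without Iri1 (adjusted p = 0.096), Iri2 (0.067) or Con3 (0.1, the highest of 13 alternatives, the lowest being 1.8e-04). Atad2b, named after its value was seen, fell by 0.27 and was lost when libraries were scaled by total counts alone (0.057) and without Con2, Con3, Iri1 or Iri2 (0.076 to 0.16, range 0.0041 to 0.16).

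Of 19 partners of DNA methylation 5 rose and 3 fell, so 42.1% were called beside 22.1% of all genes. Gadd45a, a stress-induced protein linked to DNA repair and demethylation, was at 177, 193 and 179 CPM in DMSO and 110.0, 142 and 135 with irinotecan (-0.51 ± 0.076, adjusted p = 3.4e-04). Its relatives Gadd45b and Gadd45g moved the other way, by 0.44 ± 0.10 (adjusted p = 0.0038) and 0.36 ± 0.099 (adjusted p = 0.012). The Gadd45g call was lost without Iri2 (adjusted p = 0.089, the highest of 13 alternatives, the lowest being 0.0013). Cdca7, a partner of the remodeller Hells, fell by 0.21 (SE 0.054). The other 4, named after their values were seen, were the glycosylases Mbd4 (0.40) and Tdg (-0.36) and the methyl-CpG binders Zbtb38 (0.20) and Zbtb4 (0.35). Mbd4 was lost without Con2, Iri1 or Iri2 (adjusted p range 0.0072 to 0.11 over 13 alternatives) and Tdg without Con2 or Iri1 (0.0011 to 0.099). Zbtb38 was lost without Con1, Con2, Iri2 or Iri3 (0.005 to 0.15), and Zbtb4 with DESeq2 and without Con1, Iri1 or Iri2 (0.015 to 0.21).

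Of 12 COMPASS partners 0 rose and 3 fell (25% called, beside 22.1% of all genes). Rbbp5 and Cxxc1 fell by 0.25 and 0.23 on the log2 scale, and Wdr5, named after its value was seen, fell by 0.15. Rbbp5 was lost without Iri1 (adjusted p = 0.057, range 2.9e-05 to 0.057 over 13 alternatives) and Cxxc1 without Con2 (0.079) or Iri3 (0.077, range 0.0016 to 0.079). Wdr5 was lost under total-count scaling (0.07) and without Con2, Iri1 or Iri3 (0.075 to 0.1, range 0.0026 to 0.1).

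Of 39 acetyltransferase complex partners 1 rose and 4 fell, so 12.8% were called beside 22.1% of all genes. Jade2, a scaffold of the HBO1 complex, rose by 0.41 ± 0.075. Those that fell included Kansl3, by 0.23 (SE 0.052), and Supt3, by 0.24. Supt3 was lost under 7 of 13 alternatives (adjusted p 0.016 to 0.14), among them the removal of Con1 or Con2 or of any irinotecan library. Msl2 and Usp22, named after their values were seen, fell by 0.17 and 0.14, and neither passed when any 1 library was left out (0.052 to 0.18, lowest of 13 alternatives 0.0099). Both were also lost under total-count scaling (0.089 and 0.12), and Usp22 with DESeq2 (0.055). Of 36 deacetylase complex partners 8.33% were called. The NuRD remodeller Chd3 rose by 0.23 ± 0.049 and 2 fell, among them Mbd2 by 0.20 (SE 0.055). Mbd2 was lost without Con2, Iri1 or Iri2 (0.061 to 0.072, range 8.0e-04 to 0.072).

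Of 27 Polycomb partners Phc2 fell by 0.24 (SE 0.054) and Cbx6 rose by 0.14 (SE 0.049), which is 7.41% called. Of 19 heterochromatin and other readers Morc2a fell by 0.33 (SE 0.064) and Phf6 rose by 0.18 (SE 0.061, 10.5% called). Of 11 other histone methyltransferases Dot1l, the lysine 79 enzyme, passed, with a fall of 0.19 (SE 0.055, 9.09% called). These 3 shares stand beside 22.1% of all genes. Cbx6 was lost with DESeq2 (adjusted p = 0.053) and without Con1 (0.14) or Con3 (0.086) or Iri1 (0.21) or Iri2 (0.061), with a range of 0.0032 to 0.21 over 13 alternatives. Phf6 was lost with DESeq2 and without any library except Iri2 (0.055 to 0.17, range 0.011 to 0.17), and Dot1l without Con3, Iri1 or Iri2 (0.061 to 0.079, range 8.0e-04 to 0.079). Among 10 other acetyltransferases, which include Ep300 and Crebbp, and 10 other erasers, edgeR, DESeq2 and limma-voom each called 0, with 2 of each list at an unadjusted p under 0.05 in edgeR. Without Iri3 there were 2 calls among the other acetyltransferases, and without Iri2 there was 1 among the other erasers.

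Spread within a group moved with gene length among the members. The length implied by the deposited counts and FPKM values was 8 kb or more for 33 members. In these 33, the median log2 deviation from the DMSO mean was -0.07, 0.00 and 0.09 in Con1 to Con3 and -0.08, -0.09 and 0.08 in Iri1 to Iri3. In the 56 shorter members it was between -0.02 and 0.01 in all 6 libraries. Over all 2066 genes of 8 kb or more it was -0.03, -0.02 and 0.05 in Con1 to Con3 and 0.00, -0.03 and 0.04 in Iri1 to Iri3. Con3 and Iri3 thus stood above the other libraries for long members and for long genes as a whole. The 33 held 3 genes that rose, Kdm2b, Kdm3b and Hdac9, and 5 that fell, among them Hdac4, Tet2, Kdm7a and Kdm5b. That is 24.2% called, beside 22.8% of all genes of 8 kb or more. Kmt2a, Kmt2c and Kmt2d are also among the 33. Their levels ran from 85.3 to 122, from 31.6 to 47.7 and from 157 to 203 CPM over the 6 libraries. Spearman's rho of implied length with the ratio of Con3 to Con1 was 0.5 over the 89 members and 0.27 over all genes, which share these libraries. Implied length with the fold change of irinotecan gave -0.03 and 0.02, and span from start to end gave 0.02 and 0.05. By span, Hdac9 was the only member over 300 kb (870 kb) and it rose, beside 13 higher and 29 lower of 216 genes of that span. The part of transcript length in single calls was not tested.

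**Figure D5:**
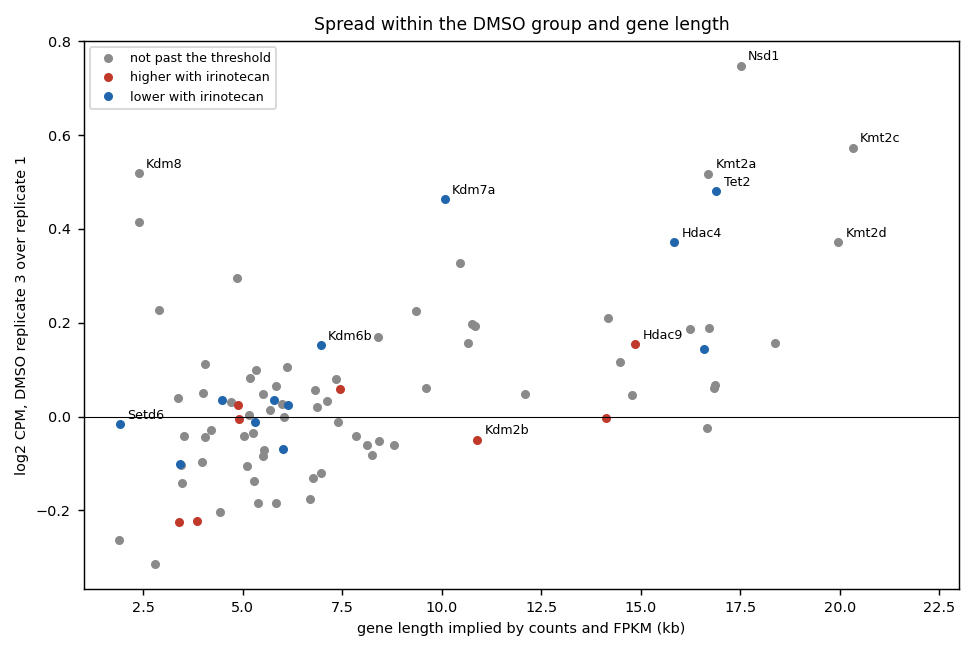
Gene length implied by counts and FPKM (kb) against the log2 CPM ratio of Con3 to Con1 for 88 members, coloured by their call. Members over 15 kb lie mostly above 0, with Nsd1, Kmt2c, Kmt2a, Tet2, Hdac4 and Kmt2d highest among them.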

How the data were processed

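RNA of 3 DMSO and 3 irinotecan samples of CT26 was measured, grouped by their titles. Per the labels' protocols, RNA was extracted with Trizol and made into Illumina libraries. The submitters' processing notes name edgeR 3.24.3, DESeq2 1.22.1, StringTie 1.3.4d, featureCounts 1.6.2, HISAT2 2.1.0, fastp 0.19.3 and the build GRCm39, without roles. Per the file headers, the deposited table gives each gene a count per library, whole and unnormalized, and the authors' FPKM, which is scaled by gene length and depth. No count is 0 and the lowest sum over 6 libraries is 58, so genes with few counts are missing from it. The authors' deposited log2 fold change runs opposite to the counts (correlation -0.986), so directions come from the counts. By the adjusted p-value of the authors' deposited table, 17 of the 89 members and 2232 of all genes are under 0.05.

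The fit used edgeR 4.0.16 in R 4.3.3 (filterByExpr, which kept 11599 genes and all 89 members, TMM, robust glmQLFit and glmQLFTest, Benjamini-Hochberg over all genes tested) and was also tested on simulated data. SE is the log2 fold change over the square root of F. CPM is TMM-normalized. Totals of 16052326 to 17294496 counts per library set the precision, together with 3 libraries per group and a biological coefficient of variation of 5.57%. Replicates were further apart than counting noise allows (chi-square over degrees of freedom 4.24 to 6.45). Alternatives were DESeq2 1.42.0, limma-voom (limma 3.58.1), size factors of the DESeq2 type, total-count scaling, no filter, at least 1 CPM in 3 libraries, the replicate number as a block, and each library left out. Named genes were all members called, 29 fixed by symbol whatever their result, and up to 2 higher and 2 lower genes of each partner list by p. Members and lists were chosen with earlier results of these data known. Results of 2 genes are not reported here by name.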

Additional observations from a re-analysis of the deposited data

How the results depend on the processing

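Of the 21 members called, 5 passed under all 13 alternatives (Kdm6b, Kdm2b, Prmt7, Kat2b and Setd6). The same count was not made over all genes, so 5 of 21 has no background. None of the 21 changed its sign under any alternative, which the separate groups of most of them largely ensure. Among named members that did not pass, Dnmt3b, Hdac3, Kat2a, Kmt2a, Setd2, Setdb1, Sirt6 and Tet3 changed sign when 1 library was left out. Of the 21, DESeq2 kept 17, limma-voom 19, DESeq2-type size factors 20, total-count scaling 14, and no filter or the 1 CPM filter all 21. Leaving out 1 library at a time gave 5 to 18 members called (2 to 8 higher, 3 to 12 lower), with 3 to 9 writers, 2 to 12 erasers and 0 to 1 readers. It gave 17 to 28 partner genes, and over all genes 1393 to 2362 (804 to 1211 higher, 589 to 1151 lower). The median log2 fold change then ran from -0.0272 to 0.0297 for erasers and from -0.0726 to 0.00248 for readers. Under total-count scaling 14 members were higher, 6 lower and 0 readers called, with medians of 0.0360 for erasers and 0.0127 for readers. The median over all genes went the same way with that scaling, from 0.000265 in the main fit to 0.0306. The cause of these shifts was not tested. With the replicate number as a block, 33 members were called (14 higher), with 15 writers among the 33, and 49 partner genes. Over all genes 3628 were then called, 1808 higher and 1820 lower. No source gives same-numbered libraries a shared culture or day, and their deviations from the group means correlated at 0.123, 0.0397 and 0.0846, so the numbers were not taken to pair them. Every library correlated best with its own number, which is a hint from the data and not from the design. At the lowest levels, those of Dnmt3b, Hdac11 and Nsd1, depth limits the precision, with standard errors of 0.31, 0.19 and 0.21 on the log2 scale.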
